A study of Mus musculus with 9 samples.

Results

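The mitochondrial ribosomal protein genes are the nuclear genes whose symbols start with Mrpl or Mrps followed by a digit, and they were followed through early pregnancy in hormone-sensing cells of the mouse mammary gland. By that rule 132 of the 45281 probes on the array belong to them, and these probes stand for 76 genes, 50 of the large and 26 of the small subunit. A gene entered the tests where the mean signal of at least 1 group reached 100, the background level of the array. This left 73 of the 76 genes among 11470 tested genes with a name, while Mrpl19, Mrpl32 and Mrpl45 stayed under it in every group. Of the 73 genes, 70 reached that level in all 3 groups and 3 in only some of them.

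The study asked how luminal cells that carry the receptors for oestrogen and progesterone (HR+ cells) change in early pregnancy. Cells came from female FVB mice (FVB/N in the methods) that were 9 to 11 weeks old per the labels, in 3 groups of 3 animals: virgin mice in metestrus, and mice 3 or 7 days pregnant. All of them, the virgin controls included, had received the thymidine analogue EdU (2 mg/g, intraperitoneal) 24 hours before harvest. HR+ cells were sorted from each animal on CD24, CD49f, Sca1 and CD49b after exclusion of dead and CD45+ cells, and RNA equivalent to 167 cells was amplified in a pair of rounds and hybridised to 1 Illumina array per animal, so that an array is an animal. The methods put the virgin mice at the upper end of that age range and the pregnant ones anywhere in it at mating, so age may differ between groups. The amount of Sca1, a sort marker, goes down in these cells during pregnancy according to the study.

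Mitochondria have a ribosome of their own, with a large and a small subunit, which makes the few proteins encoded in mitochondrial DNA, all of them subunits of the respiratory chain complexes and the ATP synthase. Its ribosomal RNAs come from mitochondrial DNA, but every protein in it is encoded in the nucleus, made in the cytosol and imported. Some of its proteins descend from bacterial ribosomal proteins and others are found only in mitochondria. The letter l or s in a symbol does not always give the subunit, since Mrps18a and Mrps30 both sit in the large subunit.

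All values below are log2 signals after quantile normalisation, a gene is read from its brightest tested probe, and a difference is a difference of group means on that log2 scale with its standard error (SE). A gene is called higher or lower where limma gave an adjusted p of 0.10 or less over all 19118 tested probes, the false discovery rate the study used, and separately where it also changed by 2-fold or more, which is 1 on the log2 scale. No value of one probe is set against that of another. With 3 arrays a group the number of animals limits the precision, and an exact permutation test of 3 against 3 cannot give a p under 0.1, so the tests rest on limma's pooled spread. In sorted bulk samples, fewer cells of a type and less RNA per cell cannot be told apart.

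Mean raw signal was higher in pregnancy, at 284 to 316 on the virgin arrays, 353 to 520 at day 3 and 348 to 440 at day 7, while median raw signals overlapped, at 87.2 to 95.6, 90.9 to 99.3 and 87.5 to 96.6. Of 14 tested HR+ markers 5 were lower and 2 higher at day 3 (median difference -0.41), and 7 were lower and 2 higher at day 7 (median -0.42). Pgr, which encodes the progesterone receptor, was among the lower ones (-1.20 and -1.15), and Tnfsf11, which encodes the signal RANKL, among the higher ones (2.34 and 4.14). The 8 tested basal markers had a median level of 6.64 to 7.17 on virgin arrays, where 6.64 is the background level, 7.03 to 8.71 at day 3 and 8.22 to 9.98 at day 7, with Krt5, Myh11 and Oxtr under background in every group. Of these 8 markers only 1 was called higher at day 3 and 2 at day 7, and none was called lower. Beta-globin signal stood out on day 7 animals 1 and 2, where Hbb-bs read 11.54 and 11.10 against 6.64 on animal 3. Of 13 tested markers of HR- luminal cells 4 were lower at day 3, and 5 were higher and 3 lower at day 7. Of all tested genes 12.4% were higher and 10.3% lower at day 3, and 14% and 11.8% at day 7. Of 8 tested endothelial markers 1 was lower at day 3, and 3 were higher and 1 lower at day 7. Of 7 macrophage markers 3 were lower at day 3, with the pan-leukocyte gene Ptprc under background throughout. The part of these cells in the results below was not tested.

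Promoters of these genes are shown first, because the members that move together can then be read against the letters before their start sites. RefSeq windows of 300 bases on GRCm38.p6, 250 before and 50 after an annotated start, were matched by symbol for 67 of the 76 genes, with 73 windows in all. They were searched on both strands for the letters GCGCATGC (NRF1 element), CCGGAAGT (an ETS element of the kind GABP binds) and AAGATGGC (YY1 element), for NRF1, GABP and YY1 are known regulators of nuclear genes for mitochondria. GCGCATGC and its reverse complement GCATGCGC share letters and can overlap, and AAGATGGC contains ATGG, the form that many translation starts take. The 130-base stretches below run from 100 bases before the start site to base 30 from it, with matches in capitals.

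Mrpl49 and Mrps7, Mrps18a and Mrps27 are shown for the YY1 element just after the start, Mrpl3 and Mrps22 for the ETS element just before it, Mrpl17 for the NRF1 element, and Mrpl12 and Mrpl34, which have the largest rises at day 3, because none of the 3 elements is in their windows. Their places are chr19:6057726-6057855 (minus strand) for Mrpl49, chr11:115604040-115604169 (plus) for Mrps7, chr17:46110904-46111033 (plus) for Mrps18a, chr13:99344686-99344815 (plus) for Mrps27, chr9:105053168-105053297 (plus) for Mrpl3, chr9:98601650-98601779 (minus) for Mrps22, chr7:105811058-105811187 (minus) for Mrpl17, chr11:120484537-120484666 (plus) for Mrpl12 and chr8:71464826-71464955 (plus) for Mrpl34.
Mrpl49: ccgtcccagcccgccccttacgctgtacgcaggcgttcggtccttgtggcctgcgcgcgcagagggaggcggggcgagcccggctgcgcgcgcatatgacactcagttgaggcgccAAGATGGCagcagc
Mrps7: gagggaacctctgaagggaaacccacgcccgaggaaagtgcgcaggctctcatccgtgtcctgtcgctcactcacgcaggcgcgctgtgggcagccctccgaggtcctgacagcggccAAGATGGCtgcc
Mrps18a: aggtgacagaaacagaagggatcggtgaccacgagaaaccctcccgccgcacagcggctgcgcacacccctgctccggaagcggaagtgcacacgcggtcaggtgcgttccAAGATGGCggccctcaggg
Mrps27: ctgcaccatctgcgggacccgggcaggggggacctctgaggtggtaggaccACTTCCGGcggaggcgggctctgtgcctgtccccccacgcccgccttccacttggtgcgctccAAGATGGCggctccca
Mrpl3: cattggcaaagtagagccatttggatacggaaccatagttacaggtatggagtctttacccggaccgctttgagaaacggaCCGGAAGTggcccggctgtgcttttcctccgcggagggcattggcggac
Mrps22: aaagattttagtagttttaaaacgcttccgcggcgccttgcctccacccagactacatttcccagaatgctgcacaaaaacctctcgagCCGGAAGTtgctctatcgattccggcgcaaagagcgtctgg
Mrpl17: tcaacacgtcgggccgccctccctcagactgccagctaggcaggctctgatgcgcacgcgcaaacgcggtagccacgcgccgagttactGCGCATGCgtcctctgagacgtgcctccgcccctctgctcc
Mrpl12: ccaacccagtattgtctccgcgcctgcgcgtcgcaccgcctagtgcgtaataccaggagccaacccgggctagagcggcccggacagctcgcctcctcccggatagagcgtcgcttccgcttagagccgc
Mrpl34: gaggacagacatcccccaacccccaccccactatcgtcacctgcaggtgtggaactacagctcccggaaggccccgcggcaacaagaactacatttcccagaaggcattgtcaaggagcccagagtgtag
The YY1 element was in 12 of the 73 member windows (16.4%) and in 2.75% of all 32851 mouse windows of that length. Among the members called higher at day 3 it was in 8 of 24 windows (33.3%), and among those with no call at day 3 in 3 of 45 (6.67%). These 8 were Mrpl36, Mrpl37, Mrpl42, Mrpl49, Mrps7, Mrps18a, Mrps24 and Mrps27, and in all but Mrpl36 the match lay on the forward strand between bases 12 and 44 after the start. Among the members called higher at day 7 it was in 7 of 15 windows (46.7%), Mrpl37, Mrpl42, Mrpl49, Mrps11, Mrps12, Mrps18a and Mrps24. The ETS element was in 16.4% of member windows against 3.89% of all, with 3 of 24 among members higher at day 3 and 8 of 45 among those with no call. The NRF1 element was in 11% against 2.71%, with 1 of 24 and 6 of 45. The E-box was in 9.59% against 7.15%, with 2 of 24 and 5 of 45. The TATA box was in 6.85% against 13.6%, with 3 of 24 and 2 of 45. Of the motifs searched, which were chosen after the values were seen, the YY1 element had the widest split by day 3 call. No such split was tested, and the like split over all tested genes was not counted. A match is a run of letters only, and whether its ATG is the first codon was not looked up.

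At day 3 of pregnancy the mitochondrial ribosomal protein genes moved mostly upward. Of the 73 tested genes 26 were higher than in virgin mice, 2 were lower and 45 passed in neither direction. That is 35.6% higher, where 12.4% of all 11470 tested genes were, and 2.74% lower, where 10.3% were. Their median difference was 0.36, with 63 differences above 0 and 10 below, and that of all tested genes was -0.01. The signal of a gene bears on its chance of a call, and among genes with a mean log2 signal of 8 or more 22 of 55 members (40%) and 19.1% of all genes were higher. Among genes above background in all 3 groups, 37.1% of 70 members and 13.7% of all genes were higher. The steps were small, and 3 of the 73 members passed 2-fold, a share below the 5.98% of all genes that did. Without virgin animal 3 that count was 8, and without virgin animal 2 it was 6.

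All 3 arrays at day 3 lay above all 3 virgin arrays for 33 of the 73 genes (45.2%), as they did for 18% of all tested genes. The median member signal was 9.30, 9.37 and 9.50 on the virgin arrays, 9.69, 9.77 and 9.53 at day 3, and 9.59, 9.38 and 9.74 at day 7. All day 3 medians lay above the virgin ones, though day 3 animal 3 and virgin animal 3 came close.

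**Figure D1:**
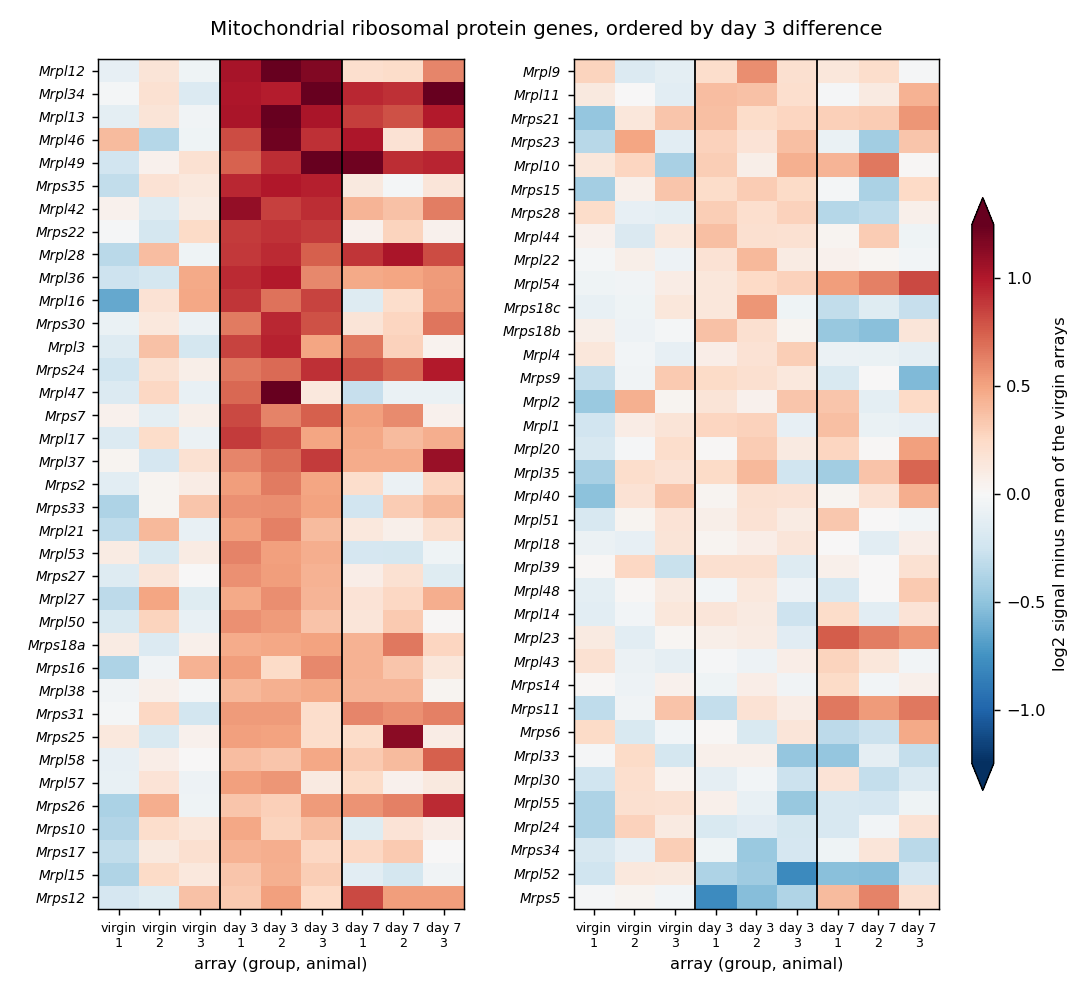
Normalised log2 signal of the 73 tested mitochondrial ribosomal protein genes (rows, in order of their day 3 difference) on the 9 arrays (columns), minus each gene's mean on the virgin arrays. Red fills most of the day 3 columns in the left panel, from Mrpl12 (1.16) down, while Mrpl52 (-0.54) and Mrps5 (-0.57) close the right panel in blue.

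Quantile normalisation gives every array the same distribution of signals, although mean raw signal was higher in pregnancy. Scaling each array to 1 median instead moved the median of all tested genes to 0.26 at day 3 and that of the members to 0.96, so that the members stood 0.70 above all genes, and 58 were then called higher, among 35.5% of all genes, with 0 lower. The members thus stood above the median of all genes under both scalings, and the 2 lower calls were lost under the second.

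The steepest rises at day 3 were in proteins of the large subunit. Mrpl12, the counterpart of the bacterial stalk protein L7/L12 that helps recruit translation factors, read 8.89, 9.15 and 8.94 on the virgin arrays and 10.02, 10.28 and 10.15 at day 3, then 9.20, 9.22 and 9.60 at day 7. Its day 3 arrays lay above all 6 others, with a rise of 1.16 (SE 0.14, 2.23-fold, adjusted p = 9.2e-04). The day 7 arrays lay above the virgin ones without passing the test (0.35, adjusted p = 0.12). Mrpl13, the mitochondrial L13 protein, read 10.29, 10.57 and 10.37 in virgin mice, 11.43, 11.67 and 11.43 at day 3 and 11.27, 11.21 and 11.40 at day 7. The pregnant arrays did not overlap with the virgin ones, and the gene rose by 1.10 (SE 0.11, adjusted p = 5.0e-04) and then stood 0.89 above virgin (SE 0.11, adjusted p = 0.0012). A second tested probe of Mrpl13 was called higher too, with smaller differences of 0.39 and 0.29. Mrpl34, the mitochondrial L34 protein, read 7.83, 8.04 and 7.68 in virgin mice, 8.86, 8.83 and 9.18 at day 3 and 8.79, 8.76 and 9.29 at day 7. Both pregnant groups lay above the virgin arrays, with rises of 1.11 (SE 0.17, adjusted p = 0.0034) and 1.10 (SE 0.17, adjusted p = 0.0031).

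Other large-subunit genes rose by just under 2-fold. Mrpl46, a protein found only in mitochondrial ribosomes, rose by 0.99 at day 3 (SE 0.25, adjusted p = 0.028), from 9.02, 8.26 and 8.57 to 9.44, 9.84 and 9.53, and its call was lost without day 3 animal 2. Mrpl49, another mitochondrial protein of the large subunit, read 10.01, 10.30 and 10.44 in virgin mice, 10.99, 11.17 and 11.56 at day 3 and 11.47, 11.17 and 11.20 at day 7. Neither pregnant group overlapped with the virgin one, and the rises were 0.98 (SE 0.17, adjusted p = 0.0059) and 1.03 (SE 0.17, adjusted p = 0.0043). The other tested probes of Mrpl49 gave smaller differences, 0.16 to 0.40 at day 3 and 0.16 to 0.24 at day 7, and none of these passed, so that the rise of Mrpl49 rests on 1 probe. Mrpl42 rose by 0.96 at day 3 (adjusted p = 0.0012), Mrpl28 by 0.85 (adjusted p = 0.011) and Mrpl36 by 0.84 (adjusted p = 0.021). Mrpl36, the mitochondrial L36 protein, read 10.04, 10.08 and 10.77 in virgin mice and 11.23, 11.29 and 10.90 at day 3, so that virgin animal 3 came close to day 3 animal 3.

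In the small subunit Mrps35 and Mrps22, both found only in mitochondria, changed most. Mrps35 read 7.30, 7.79 and 7.74 on virgin arrays, 8.55, 8.61 and 8.58 at day 3, and 7.73, 7.59 and 7.76 at day 7. Its 3 day 3 arrays stood together above the other 6, which overlapped, with a rise of 0.97 (SE 0.13, adjusted p = 0.0019). Mrps22 read 9.00, 8.79 and 9.25, then 9.88, 9.91 and 9.88, then 9.06, 9.29 and 9.06, which is the same order of groups with a rise of 0.88 (SE 0.13, adjusted p = 0.0024). By subunit, 19 of 47 tested large-subunit genes and 7 of 26 small-subunit genes were higher at day 3, and the medians were 0.33 and 0.37. The difference between the subunits was not tested.

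Against this direction, Mrps5 and Mrpl52 were lower at day 3. Mrps5, the mitochondrial S5 protein, which in bacteria bears on the accuracy of decoding, read 8.75, 8.79 and 8.73 in virgin mice, 7.97, 8.23 and 8.38 at day 3 and 9.16, 9.38 and 8.96 at day 7. The 3 groups did not overlap. Mrps5 fell by 0.57 at day 3 (SE 0.14, adjusted p = 0.025) and stood 0.41 above virgin at day 7 (SE 0.14, adjusted p = 0.078), the latter call being lost in 6 of the 9 fits that left out 1 array. A second tested probe of Mrps5 went the other way at day 3 (0.22) and was not called, so the fall rests on 1 probe. Mrpl52, a mitochondrial protein of the large subunit, read 9.98, 10.36 and 10.35 in virgin mice and 9.84, 9.79 and 9.43 at day 3, a fall of 0.54 (SE 0.16, adjusted p = 0.051) that did not pass without virgin animal 2, virgin animal 3 or day 3 animal 3. With each array scaled to 1 median the values were 0.06 for Mrps5 and 0.18 for Mrpl52.

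At day 7 the upward direction was weaker. Of the 73 genes 17 were higher than in virgin mice and none was lower by limma, which is 23.3% higher where 14% of all tested genes were and compares with 11.8% of all genes lower. At an unadjusted p under 0.05, 24 of the 73 members passed in either direction, and 3763 of all 11470 genes did, a like share. Cyber-T, the test the study used, called 12 higher, all among the 17, and none lower. The calls lost under it were those of Mrpl17, Mrpl42, Mrpl58, Mrps5 and Mrps18a. The mean of all probes of a gene called 14 higher, 13 of them among the 17. Array weights and a filter on every array of a group each called 1 lower. The median member difference was 0.16 and that of all genes -0.01. Among genes with a mean signal of 8 or more, 16 of 55 members (29.1%) and 21.3% of all genes were higher, a smaller gap. Past 2-fold were Mrpl34 and Mrpl49, 2 of 73 where 7.38% of all genes were. Groups did not overlap for 20 genes upward (27.4%, against 17.4% of all genes) and for 1 downward, Mrps18c, where 17% of all genes did so downward. With both arrays with beta-globin signal left out, and day 7 animal 3 taken to vary like the other groups, 11 members were higher, 9 of them among the 17. That is 15.1% of members and 7.03% of all genes, with a member median of 0.19. The calls lost were those of Mrpl17, Mrpl28, Mrps5, Mrps11, Mrps12, Mrps18a, Mrps26 and Mrps31. The same virgin arrays serve both days, so the 2 comparisons are not independent.

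A call upward on both days was made for 11 genes. Besides Mrpl13, Mrpl34 and Mrpl49 these were Mrpl17, Mrpl28, Mrpl37, Mrpl42, Mrpl58, Mrps18a, Mrps24 and Mrps31. The shared virgin arrays favour such joint calls, and their share over all tested genes was not counted. Not all calls of the 11 genes were firm. Under Cyber-T Mrpl58 and Mrps18a lost both calls, Mrpl17 and Mrpl42 their day 7 calls and Mrps31 its day 3 call. Mrpl17 lost its day 7 call in 5 of the 9 fits that left out 1 array, Mrpl58 its day 3 call in 5 and Mrps31 its day 3 call in 6, and the other tested probes of Mrps31 gave -0.03 to 0.07 at day 3 and -0.06 to 0.02 at day 7. Mrpl28 read 11.04, 11.77 and 11.33 in virgin mice, 12.26, 12.31 and 12.13 at day 3 and 12.27, 12.40 and 12.20 at day 7. Mrps24, the mitochondrial S3 protein of the small subunit head, read 10.94, 11.38 and 11.26, then 11.85, 11.90 and 12.10, then 11.99, 11.91 and 12.18. In both genes the pregnant arrays of the 2 days overlapped and lay above the virgin ones, with day 7 rises of 0.91 (SE 0.17, adjusted p = 0.0074) and 0.84 (SE 0.14, adjusted p = 0.0039). Mrpl37 rose by 0.72 and 0.66 (adjusted p = 0.03 and 0.039), losing the day 3 call without day 3 animal 3 and the day 7 call without virgin animal 2, and its second probe, at 0.42 and 0.07, was not called. Mrpl58, an enzyme that frees stalled peptides from the ribosome, rose by 0.41 (adjusted p = 0.057) and 0.50 (adjusted p = 0.024).

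**Figure D2:**
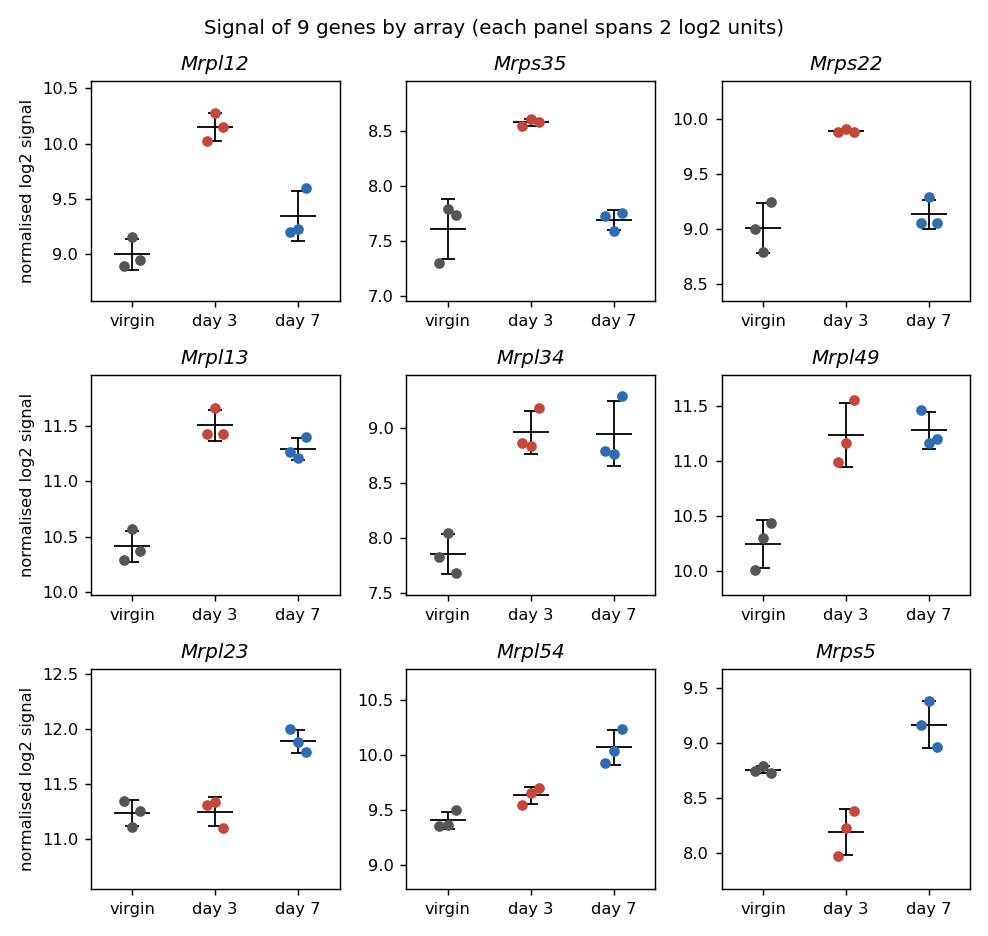
Normalised log2 signal of 9 genes on each array (points) with the mean and SD of each group of 3 animals (black). The top row (Mrpl12, Mrps35, Mrps22) peaks at day 3, the middle row (Mrpl13, Mrpl34, Mrpl49) stays up at day 7, Mrpl23 and Mrpl54 are highest at day 7, and Mrps5 dips to 7.97 to 8.38 at day 3.

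The direct comparison of day 7 with day 3 separates these courses. Here 11 of the 73 genes were lower at day 7 (15.1%, against 10.3% of all genes) and 4 were higher (5.48%, against 9.74%), with a median of -0.15 where all genes had -0.01. None passed 2-fold by limma, where 4.82% of all genes did, and array weights gave 2 past 2-fold. An unadjusted p under 0.05 was reached by 21 of the 73 members and by 3236 of all 11470 genes, a like share. The count of lower genes was 4 without day 3 animal 1, 5 without day 3 animal 2, 6 without day 7 animal 2 and 7 without day 7 animal 1, so the list of falling genes depends on single animals. Without day 3 animal 1 the share lower was 5.56% of members and 6.35% of all genes, and without day 3 animal 2 it was 6.94% and 5.92%, so the higher share among members was lost in the first case and small in the second. Without day 7 animal 1 it was 9.72% and 7.32%, and without day 7 animal 2 8.22% and 7.35%. The count of higher genes was 2 without day 3 animal 1.

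Of the 26 genes higher at day 3, 7 were lower again at day 7 by this test. The same day 3 arrays serve both comparisons, so genes picked for high day 3 signals tend towards a fall. How many of all genes higher at day 3 fell again was not counted. Mrps35 fell by 0.89 (SE 0.13, adjusted p = 0.0037), Mrpl12 by 0.81 (SE 0.14, adjusted p = 0.006), Mrps22 by 0.75 (SE 0.13, adjusted p = 0.0062) and Mrpl53 by 0.69 (SE 0.11, adjusted p = 0.005), and each of these calls held whichever single array was left out. With both arrays with beta-globin signal left out, Mrpl12 and Mrpl53 were no longer called lower, while Mrps35 and Mrps22 were. Mrpl53, a mitochondrial protein of the large subunit, read 7.03, 6.74 and 7.03 in virgin mice, 7.55, 7.44 and 7.38 at day 3 and 6.72, 6.71 and 6.88 at day 7, where its signal is close to background. Its day 3 arrays lay above all others. Mrpl42 (fall of 0.48, adjusted p = 0.031), Mrps27 (0.47, adjusted p = 0.036) and Mrps2 (0.42, adjusted p = 0.051) fell too. All 3 lost the call without day 3 animal 1, Mrps27 and Mrps2 also without day 3 animal 2, and Mrps2 without day 7 animal 2, and Mrpl42 and Mrps2 lost it without both arrays with beta-globin signal. Mrps27 read 7.03, 7.34 and 7.19 in virgin mice, 7.76, 7.71 and 7.62 at day 3 and 7.27, 7.38 and 7.04 at day 7. Mrpl42 stands apart from these in that it was still above virgin at day 7, by 0.48 (adjusted p = 0.025), with 8.05, 7.84 and 8.10 in virgin mice, 9.10, 8.85 and 8.92 at day 3 and 8.42, 8.37 and 8.64 at day 7. Its groups took 3 separate levels, though Cyber-T did not call its day 7 difference from virgin.

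Another 4 genes, Mrpl15, Mrpl47, Mrps18c and Mrps28, were lower at day 7 than at day 3 without a call against virgin on either day. All 4 lost this call in 5 or 6 of the 9 fits that left out 1 array. Mrpl47, the mitochondrial L29 protein, had the widest step, -0.88 (SE 0.26, adjusted p = 0.066), from 8.64, 9.25 and 8.05 at day 3 to 7.63, 7.84 and 7.84, with day 3 animal 3 close to day 7. A second tested probe of Mrpl47 gave 0.02. Mrpl15 had 3 tested probes with like steps of -0.50 to -0.49, of which only the brightest passed.

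Genes higher at day 7 than at day 3 were Mrps5, Mrpl23, Mrpl54 and Mrps11. Mrps5 rose by 0.97 (SE 0.14, adjusted p = 0.0028), with the limit of its second probe (-0.10) as above. Mrpl23, which lines the exit of the peptide tunnel, read 11.35, 11.11 and 11.26 in virgin mice, 11.31, 11.34 and 11.10 at day 3 and 12.00, 11.88 and 11.79 at day 7. Virgin and day 3 arrays overlapped and day 7 lay above both, with rises of 0.65 over virgin (SE 0.11, adjusted p = 0.0042) and 0.64 over day 3 (SE 0.11, adjusted p = 0.0062). Mrpl54, a mitochondrial protein of the large subunit, read 9.36, 9.37 and 9.50, then 9.55, 9.66 and 9.70, then 9.93, 10.04 and 10.24. Its groups did not overlap at any stage, and it rose by 0.66 over virgin (SE 0.10, adjusted p = 0.0035) and by 0.43 over day 3 (SE 0.10, adjusted p = 0.03), the latter lost without day 3 animal 1. Mrps11 rose by 0.62 over virgin (adjusted p = 0.051) and by 0.63 over day 3 (adjusted p = 0.06), but lost these calls in 4 and 5 of the 9 fits, and its second probe, at 0.20 and 0.25, was not called. Without both arrays with beta-globin signal Mrpl23 and Mrps11 were no longer called over day 3.

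At day 7 only, Mrps12 and Mrps26 were also called over virgin. Mrps12, the S12 protein of the decoding site, read 10.17, 10.23 and 10.75 in virgin mice and 11.21, 10.90 and 10.90 at day 7, a rise of 0.62 (SE 0.17, adjusted p = 0.036) that its second probe shared (0.50). The call was lost without day 7 animal 1. Mrps26 rose by 0.70 (SE 0.20, adjusted p = 0.046) and lost the call without virgin animal 1, virgin animal 3 or day 7 animal 3. The second probe of Mrps26, at 0.23, was not called. At day 3 Mrps12 and Mrps26 had differences of 0.36 and 0.39, and neither passed.

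The Mrps18 genes are 3 paralogues of 1 bacterial protein. Mrps18a, which sits in the large subunit, rose at day 3 by 0.48 (SE 0.12, adjusted p = 0.03), with a like rise of 0.46 at day 7 (SE 0.12, adjusted p = 0.033), from 9.57, 9.30 and 9.53 to 9.93, 9.95 and 9.97 and then 9.90, 10.13 and 9.74. Mrps18b and Mrps18c, both in the small subunit, were not called against virgin. Under Cyber-T none of the 3 genes was called against virgin on either day. Mrps18b differed by 0.20 and -0.28, and Mrps18c by 0.22 and -0.25. Between the days Mrps18c fell by 0.47 (SE 0.15, adjusted p = 0.085), and Mrps18b differed by -0.48 with more spread (SE 0.18, adjusted p = 0.13), its arrays at 9.27, 9.22 and 9.89 on day 7. The 3 genes were not tested against each other.

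For 36 of the 73 genes no comparison passed, and the like share of all tested genes was not counted. Among these 36 members the smallest summed changes were those of Mrpl48 (0.02 and 0.05 against virgin), Mrps14 (0.00 and 0.09) and Mrps6 (-0.02 and -0.05). Mrps14 lay close to background, with means of 6.65, 6.65 and 6.74 in virgin, day 3 and day 7 mice. Mrps6 still varied between animals, from 10.32 to 11.12 at day 7. Mrps34, which is at 12.16, 12.26 and 12.67 in virgin mice, had differences of -0.24 and -0.08, and Mrpl38 was called at day 3 with a rise of 0.44 (adjusted p = 0.037), where its second probe gave -0.08. In all, 25 genes had more than 1 tested probe, and their calls differed between probes for 6 genes at day 3, 6 at day 7 and 4 between the days.

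**Figure D3:**
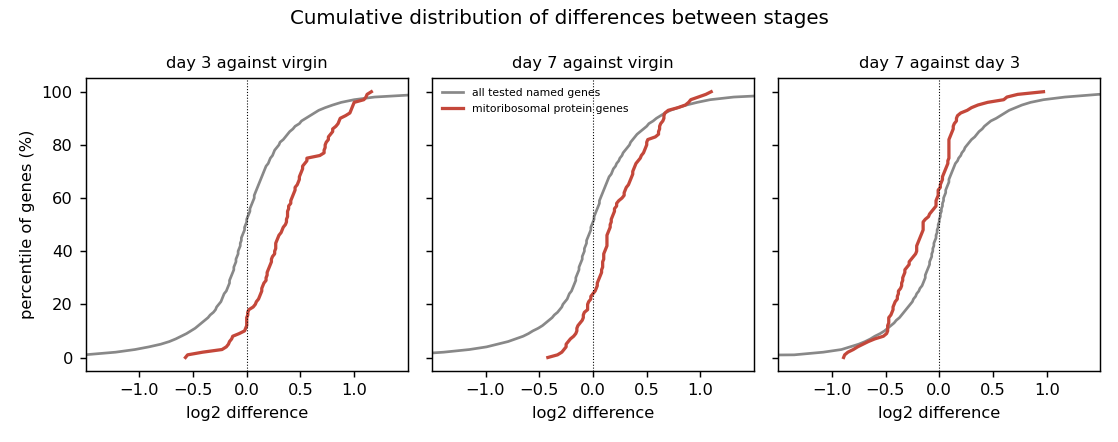
Percentile of genes (vertical axis, %) against log2 difference (horizontal axis) in each comparison for the 73 mitochondrial ribosomal protein genes (red) and all 11470 tested named genes (grey), drawn between -1.5 and 1.5. The red median lies at 0.36 at day 3 and 0.16 at day 7 against -0.01 for all genes, while few members reach the outer ends.

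Other parts of the mitochondrial translation machinery were counted in the same way, beside 12.4% of all genes higher and 10.3% lower at day 3 and 14% and 11.8% at day 7. Of 4 tested mitoribosomal proteins with other names, Dap3 and Chchd1, both of the small subunit, were higher on both days. Dap3 read 12.03, 12.01 and 12.00 in virgin mice, 12.56, 12.71 and 12.43 at day 3 and 12.32, 12.42 and 12.41 at day 7, with rises of 0.56 (adjusted p = 0.0049) and 0.37 (adjusted p = 0.026). Chchd1 rose by 0.77 (adjusted p = 0.0014) and 0.49 (adjusted p = 0.0096). Of 19 tested genes for assembly and rRNA modification 3 were higher and 1 was lower at day 3, and 4 and 1 at day 7, with medians of 0.01 and 0.09. The GTPase Noa1 rose by 0.93 (adjusted p = 0.016) and 0.72 (adjusted p = 0.041) and the RNA helicase Dhx30 by 0.58 (adjusted p = 0.0046) and 0.66 (adjusted p = 0.0023), while the GTPase Mtg2 fell by 0.53 at day 3 (adjusted p = 0.0043) and differed by -0.06 at day 7.

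Of 15 tested translation factors and related genes 3 were higher at day 3 (20%) and 4 at day 7 (26.7%). Lrpprc, which stabilises mitochondrial mRNAs, read 7.42, 7.02 and 6.81 in virgin mice, 8.19, 8.24 and 7.81 at day 3 and 7.23, 6.97 and 7.08 at day 7, a rise of 1.00 (SE 0.18, adjusted p = 0.0063) and a fall of 0.99 between the days (adjusted p = 0.0079). The elongation factor Tufm had the other course, with 10.71, 10.80 and 11.11, then 10.86, 10.82 and 11.09, then 11.91, 11.81 and 11.76, a rise of 0.95 at day 7 (SE 0.13, adjusted p = 0.0014) after 0.05 at day 3. The elongation factor Gfm1 rose at day 3 by 0.68 (adjusted p = 0.01), with a day 7 value of 0.23, and fell by 0.45 between the days (adjusted p = 0.062). Lrpprc and Gfm1 were thus highest at day 3 and Tufm at day 7.

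Genes for charging mitochondrial tRNAs moved in both directions, 2 higher and 2 lower of 15 at day 3 and 1 higher and 2 lower at day 7. The isoleucine enzyme Iars2 rose by 0.87 at day 3 (adjusted p = 0.012) and fell by 1.10 between the days (adjusted p = 0.0051). The leucine enzyme Lars2 fell by 0.94 (adjusted p = 0.0023) and 1.05 (adjusted p = 0.0012), and Gatb, a subunit of the enzyme that forms glutaminyl-tRNA, by 0.96 (adjusted p = 0.014) and 1.13 (adjusted p = 0.006). Of 11 tested genes for mitochondrial DNA and its transcription 1 was higher and 2 were lower at day 3, and 2 and 2 at day 7. Polrmt, the mitochondrial RNA polymerase, rose by 0.83 (adjusted p = 0.047) and 1.02 (adjusted p = 0.018). Polg2, the accessory subunit of the DNA polymerase, fell by 1.66 (adjusted p = 0.0015) and 0.88 (adjusted p = 0.022), and the helicase Twnk by 1.03 (adjusted p = 0.0097) and 1.49 (adjusted p = 0.0015).

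Import and folding genes had more calls upward at day 3 than at day 7. Of 20 tested genes 9 were higher at day 3 (45%), 1 was higher and 1 lower at day 7, and 7 were lower at day 7 than at day 3. Timm8a1, a chaperone of the intermembrane space, read 9.56, 9.36 and 8.93 in virgin mice, 10.44, 10.48 and 10.51 at day 3 and 9.80, 9.83 and 9.61 at day 7, a rise of 1.19 (SE 0.15, adjusted p = 0.0014) followed by a fall of 0.73 (adjusted p = 0.016). Of 7 outer membrane, carrier and matrix proteins 5 were higher at day 3 and 2 at day 7, and 4 were lower at day 7 than at day 3. Among those higher at day 3 were the citrate cycle enzymes Mdh2 (0.89 and 0.54, adjusted p = 0.0012 and 0.01) and Cs, the citrate synthase (0.69, adjusted p = 0.01, then 0.25). The nuclear OXPHOS subunits, which work beside the products of the mitoribosome, had 19 of 66 higher and 3 lower at day 3 (28.8% higher), and 21 higher and 1 lower at day 7 (31.8% higher), with medians of 0.14 and 0.21. Cytosolic ribosomal proteins had 9 of 55 higher and 1 lower at day 3 (16.4% higher), and 12 higher at day 7 (21.8%), with medians of 0.17 and 0.12.

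**Figure D4:**
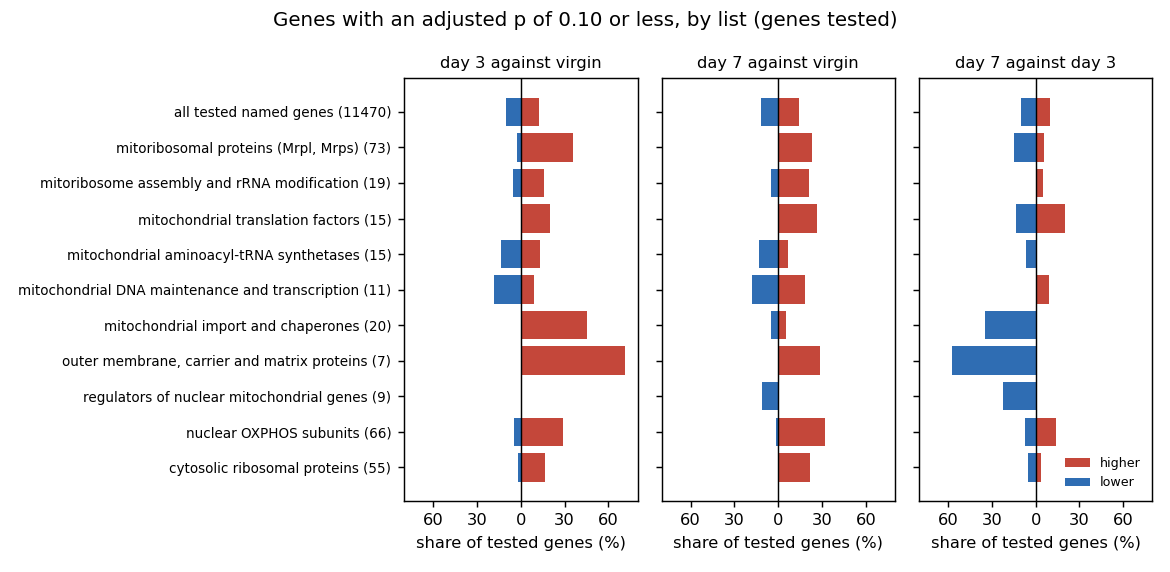
Share of tested genes (horizontal axis, %) called higher (red, to the right) or lower (blue, to the left) in each comparison, by gene list, with the number tested in brackets. The mitochondrial ribosomal protein genes have 35.6% higher at day 3 where all tested genes have 12.4%, and lists of under 20 genes move by several percent with each gene.

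Of 9 tested regulators of nuclear genes for mitochondria none was called at day 3 by limma. An unadjusted p under 0.05 was reached by 2 of them and by 3475 of all 11470 genes. Yy1, which encodes the factor that binds the YY1 element, stayed under background in every group and was not tested. Gabpa, Gabpb1 and Gabpb2, which encode parts of GABP, were tested and called in no comparison. Nrf1, which encodes the factor that binds the NRF1 element, read 9.64, 9.81 and 9.78 in virgin mice, 9.73 to 10.14 at day 3 and 9.02, 9.23 and 8.87 at day 7. Its day 7 arrays lay below all others, with a fall of 0.70 from virgin (SE 0.13, adjusted p = 0.0082) and of 0.92 from day 3 (adjusted p = 0.0033). The co-activator Pprc1 differed by 0.65 at day 3 (adjusted p = 0.14) and fell by 0.83 between the days (adjusted p = 0.071).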

How the data were processed

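Gene expression was measured in HR+ luminal cells of 9 mice, 3 in each of 3 groups, on Illumina Mouse WG-6 v2.0 arrays. The deposited raw table holds intensity values per probe as the scanner software gave them, with its detection columns empty. The authors also deposited log2 values, made by log2 transformation and quantile normalisation, which differed from the values used here by 0.0238 on average and by 0.118 at most.

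Here the raw intensities were taken to log2 and all 9 arrays quantile normalised together, with no background subtracted. A probe was tested if any group's mean was at a signal of 100 or above. limma 3.58.1 in R 4.3.3 was fitted to all 9 arrays with the group as the only term, and p-values were adjusted by the Benjamini-Hochberg method over 19118 tested probes. Symbols came from the platform annotation, which names 34903 probes, 34885 of them with 1 symbol; 18 with several were not named and no symbol changed through its gene ID. A gene was read from its brightest tested probe. No pair of arrays was identical, and an Illumina slide holds 6 arrays, but the files name no slides, so slide and group cannot be told apart. Replicate numbers only name animals.

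The members and gene lists were chosen with earlier results of these data known. Named members are those past 2-fold, up to 10 with the largest call per direction and comparison, the 3 with the brightest probes, the 3 with the smallest summed change and the Mrps18 genes. Up to 4 genes of each pathway list were named per comparison. Other genes named are called members beyond these limits or second probes and markers. Mrps34 and Mrpl38 were named for their brightness. Promoter windows come from RefSeq on GRCm38.p6, and the motifs and the windows shown were chosen after the values were seen. Alternatives changed the normalisation, background correction, filter, test, fit, threshold and probe rule, added the replicate number as a block or left out each array.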

Additional observations from a re-analysis of the deposited data

Results flagged for a closer look

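For 14 of the named genes the effects of day 3 and of day 7 against the same virgin arrays differed, by the direct test of day 7 against day 3 in limma. All 14 meet the naming rule through their call in this comparison, so the count follows from that rule. Over all tested genes 10.3% were lower and 9.74% higher here. Genes lower at day 7 were Mrps35 (-0.89, adjusted p = 0.0037), Mrpl47 (-0.88, adjusted p = 0.066), Mrpl12 (-0.81, adjusted p = 0.006), Mrps22 (-0.75, adjusted p = 0.0062), Mrpl53 (-0.69, adjusted p = 0.005), Mrpl15 (-0.50, adjusted p = 0.073), Mrpl42 (-0.48, adjusted p = 0.031), Mrps18c (-0.47, adjusted p = 0.085), Mrps27 (-0.47, adjusted p = 0.036) and Mrps28 (-0.47, adjusted p = 0.065). Genes higher at day 7 were Mrps5 (0.97, adjusted p = 0.0028), Mrpl23 (0.64, adjusted p = 0.0062), Mrps11 (0.63, adjusted p = 0.06) and Mrpl54 (0.43, adjusted p = 0.03). Mrps5 was below virgin at day 3 (-0.57) and above it at day 7 (0.41). Mrps2 (-0.42) differed too and is the 15th member called in this comparison, though not among the named genes.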

How the results depend on the processing

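Among the calls of the named genes, directions were kept in all fits but one. Named genes with differences near 0, such as Mrps6 and Mrpl48, are not covered by this. With each array scaled to the same median, the day 3 differences of Mrpl52 and Mrps5 turned to 0.18 and 0.06. Under that scaling 58 members were higher and 0 lower at day 3, 32 passed 2-fold and the median was 0.96, against 45 higher, 17 past 2-fold and a median of 0.73 at day 7, and 2 higher, 7 lower and 1 past 2-fold between the days. All tested genes had medians of 0.26 at day 3 and 0.23 at day 7 there, which leaves the members 0.70 and 0.50 above them. These gaps are against genes of all signal levels, and bright genes were not compared apart. Genes past 2-fold at day 3 numbered 6 after normexp correction. At day 3, Cyber-T, an adjusted p of 0.05 and the mean of all probes of a gene each left 1 member lower. At day 7, Cyber-T called 12 members higher and the mean of all probes of a gene 14. Array weights and a filter on every array of a group each called 1 lower there, and the mean of all probes left 1 past 2-fold. Between the days, an intensity trend called 7 lower, an adjusted p of 0.05 called 6 and array weights 22, with 2 past 2-fold under array weights and 1 each under cyclic loess and normexp. Without both day 7 arrays with beta-globin signal, chosen after the data were seen, 11 were higher at day 7, and 2 were higher and 4 lower between the days. The cause of these shifts was not tested.

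Leaving out 1 array gave 18 to 29 members higher and 1 to 3 lower at day 3, 3 to 8 past 2-fold and medians of 0.26 to 0.40. It gave 14 to 17 higher and 0 to 2 lower at day 7, 1 to 3 past 2-fold and medians of 0.09 to 0.24, and 2 to 4 higher, 4 to 14 lower and 0 to 2 past 2-fold between the days, with medians of -0.19 to -0.11. Of the calls, 18 of 28 at day 3, 11 of 17 at day 7 and 6 of 15 between the days held in all 9 such fits. With the replicate number as a block, 28 members were higher, 2 lower and 3 past 2-fold at day 3, 16, 0 and 2 at day 7, and 4, 10 and 0 between the days, and the numbers did not pair the arrays (correlations of deviations between -0.0507 and 0.0684). The slide as a block was not run. Arrays of 3 animals a group limit which differences of under 2-fold can be called.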
